A study of Mus musculus with 6 samples.

Results

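The genes of the liver's extracellular matrix and of its stellate cells were compared between mice on a high-fat and mice on a low-fat diet. The list held 35 genes for collagens, matrix glycoproteins, matrix enzymes and their inhibitors, and fibroblast and stellate cell proteins. A gene was measured when the platform's gene table gave at least 1 probe set, the group of short probes that reads a transcript, to that gene alone. This gave 33 genes with 51 probe sets, of 8252 genes with such a probe set in all. Fbn1 and Spp1 are not analysed here.

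Each of the 6 arrays held RNA from the liver of C57BL/6 mice (an inbred strain) fed for 12 weeks on a Western-style diet high in fat (3 arrays) or on a low-fat diet (3 arrays). The keywords name LDL receptor deficiency, while each of these arrays is described only as C57BL/6 and no altered allele is given for it. Age, sex and whether an array held RNA of 1 mouse or of a pool are not given, so p-values measure the spread between arrays, which may be technical. The deposited values are linear intensities, and values under a floor of 68.9 were set to it before conversion to log2. Testing required that 3 or more of the 6 arrays exceeded this floor. Array medians ran from 171.5 to 188.4, and between 8550 and 8856 of 12488 probe sets lay above the floor on an array. The number of arrays limits the precision of every difference given here.

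Stellate cells lie between the hepatocytes and the sinusoids and store vitamin A in the healthy liver. When the liver is injured they can turn into contractile myofibroblasts, which carry smooth muscle actin and secrete fibrillar collagens together with inhibitors of the proteases that degrade them. Transforming growth factor beta and platelet-derived growth factor are well known signals for this change, and the matrix that builds up is the scar of liver fibrosis. In whole liver RNA, a lower value from fewer cells of a type cannot be told apart from one due to less RNA per cell.

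The RefSeq table of mouse assembly GRCm38.p6 held start regions, from 250 bases before to 50 bases after a transcript start, for 22 of the 33 measured genes. The 3 shown here are those of Col1a2 and Mmp14, the member genes with the smallest unadjusted p, and of Col4a2, which shares its start region with Col4a1, and in each the transcript starts at position 251. Col1a2 encodes a chain of type I collagen (chr6:4505368-4505667, plus strand), and Mmp14 a membrane-bound matrix protease (chr14:54431348-54431647, plus strand). In these, capitals mark the letters CCAAT, known as the box bound by the factor NF-Y, and GGGCGG, the GC box bound by Sp1, on either strand (ATTGG is CCAAT read on the other strand). In Mmp14 the ATTGG at positions 228 to 232 shares a base with the GGGCGG at 232 to 237. Col4a1 and Col4a2, for the main chains of basement membrane collagen, lie head to head on opposite strands. Their annotated starts are 21 bases apart, and the first bases of both transcripts overlap. Capitals in the Col4a2 window (chr8:11312555-11312854, plus strand) mark the 78 bases that it shares with the window of Col4a1 on the minus strand.
Col1a2: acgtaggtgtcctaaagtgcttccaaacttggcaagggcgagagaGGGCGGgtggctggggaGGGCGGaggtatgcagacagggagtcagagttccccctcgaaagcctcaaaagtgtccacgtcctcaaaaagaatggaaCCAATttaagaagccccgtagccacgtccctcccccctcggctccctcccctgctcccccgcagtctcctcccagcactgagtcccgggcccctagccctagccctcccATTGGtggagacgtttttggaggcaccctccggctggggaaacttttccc
Mmp14: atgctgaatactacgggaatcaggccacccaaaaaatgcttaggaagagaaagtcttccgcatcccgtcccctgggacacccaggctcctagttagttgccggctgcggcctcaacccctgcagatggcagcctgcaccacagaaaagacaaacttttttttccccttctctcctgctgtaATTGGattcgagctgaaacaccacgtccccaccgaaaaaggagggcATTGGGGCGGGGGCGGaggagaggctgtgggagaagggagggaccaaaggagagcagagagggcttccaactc
Col4a2: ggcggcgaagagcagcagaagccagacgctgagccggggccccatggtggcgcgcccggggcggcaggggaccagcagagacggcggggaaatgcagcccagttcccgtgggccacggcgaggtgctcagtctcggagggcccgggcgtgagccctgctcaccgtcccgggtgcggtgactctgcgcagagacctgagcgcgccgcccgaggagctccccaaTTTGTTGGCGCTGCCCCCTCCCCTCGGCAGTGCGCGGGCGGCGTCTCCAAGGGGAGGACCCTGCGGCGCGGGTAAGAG
CCAAT stood in 9 of the 24 windows of measured member genes (37.5%) and in 37.4% of all 32851 windows, and GGGCGG in 17 of the 24 (70.8%) and in 35.7% of all. These are matches of letters, not known sites.

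No gene of the matrix and stellate cell list passed the test for a difference between the diets. Of the 51 probe sets 36 were tested, for 28 genes, and 0 of the 36 reached an adjusted p of 0.05 in limma, where 0.827% of the 8950 tested probe sets did. The smallest adjusted p among them was 0.308, and 4 had an unadjusted p under 0.05 (11.1%, against 9.07% of all tested probe sets). These 4 read Col1a2, Col4a1, Col15a1 and Mmp14 and all lay higher on the high-fat diet. Arrays of the diets did not overlap for 5 of the 36, all higher on the high-fat diet (13.9%), where 7.34% of all tested probe sets were higher and 6.76% lower without overlap. The fifth was Dcn.

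Most differences were small and above 0. Of the 36 probe sets 27 had a log2 difference above 0 (75%), against 50.5% of all tested probe sets. Their median log2 difference was 0.18, against 0.003 over all tested probe sets, and single values ran from -0.49 for Lum to 1.40 for Col1a2. The probe sets share 6 arrays and some share a gene, so this count is a description without a test. With both arrays numbered 3 left out, 19 of 33 lay above 0 (57.6%) and the median was 0.11. Without high-fat array 3 alone the median was 0.097. For 24 of the 36 the 95% interval of the difference, taken for each probe set alone, lay within 1 on the log2 scale, which is a doubling or a halving (66.7%, against 75.2% of all tested probe sets). For the remaining 12 a change of that size lay within the interval. The log2 SD was larger among the high-fat than among the low-fat arrays for 21 of the 36 (58.3%), close to the 52.4% of all tested probe sets.

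**Figure D1:**
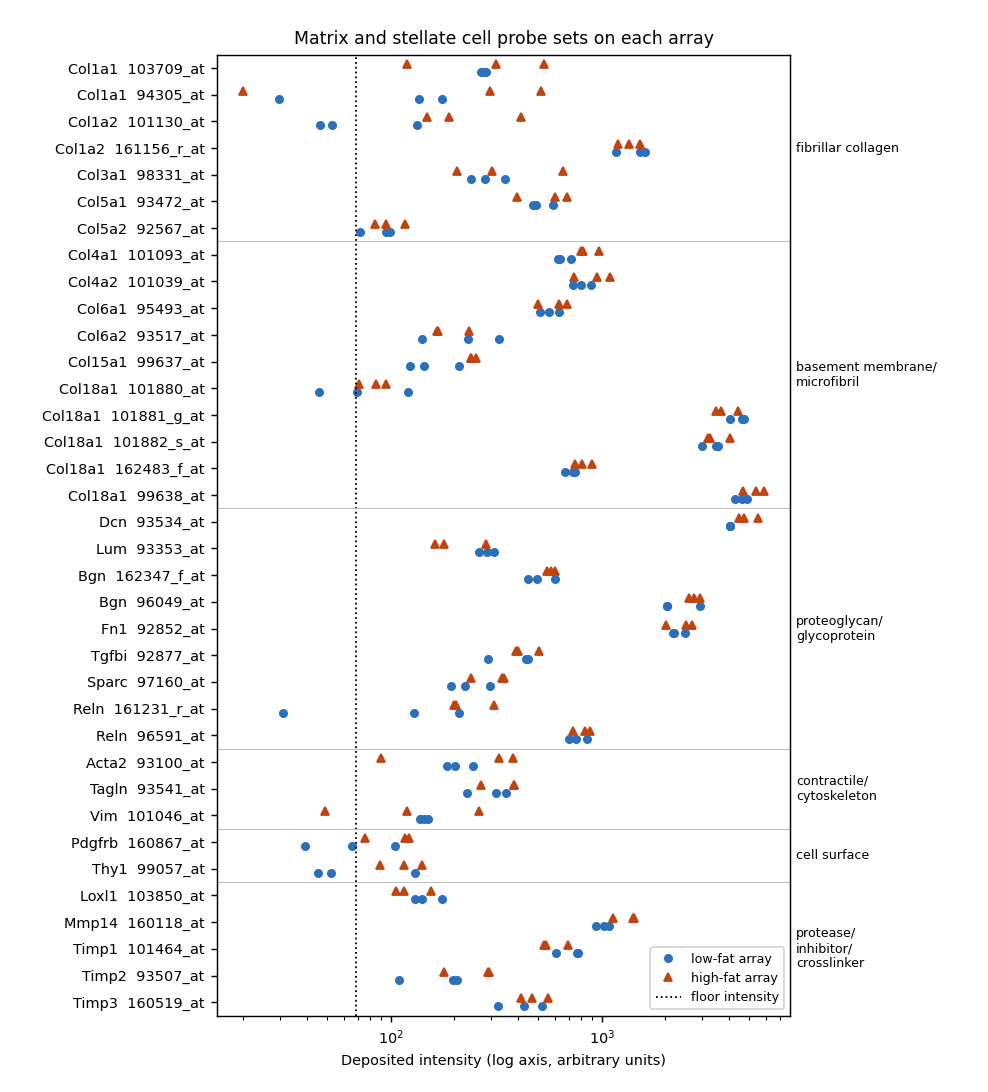
Deposited intensity (log axis) of each of the 36 tested probe sets on each array, with triangles for the 3 high-fat and circles for the 3 low-fat arrays and a dotted line at the floor of 68.9. In 5 probe sets, those of Col1a2 (101130_at), Col4a1, Col15a1, Dcn and Mmp14, all triangles lie to the right of the circles.

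**Figure D2:**
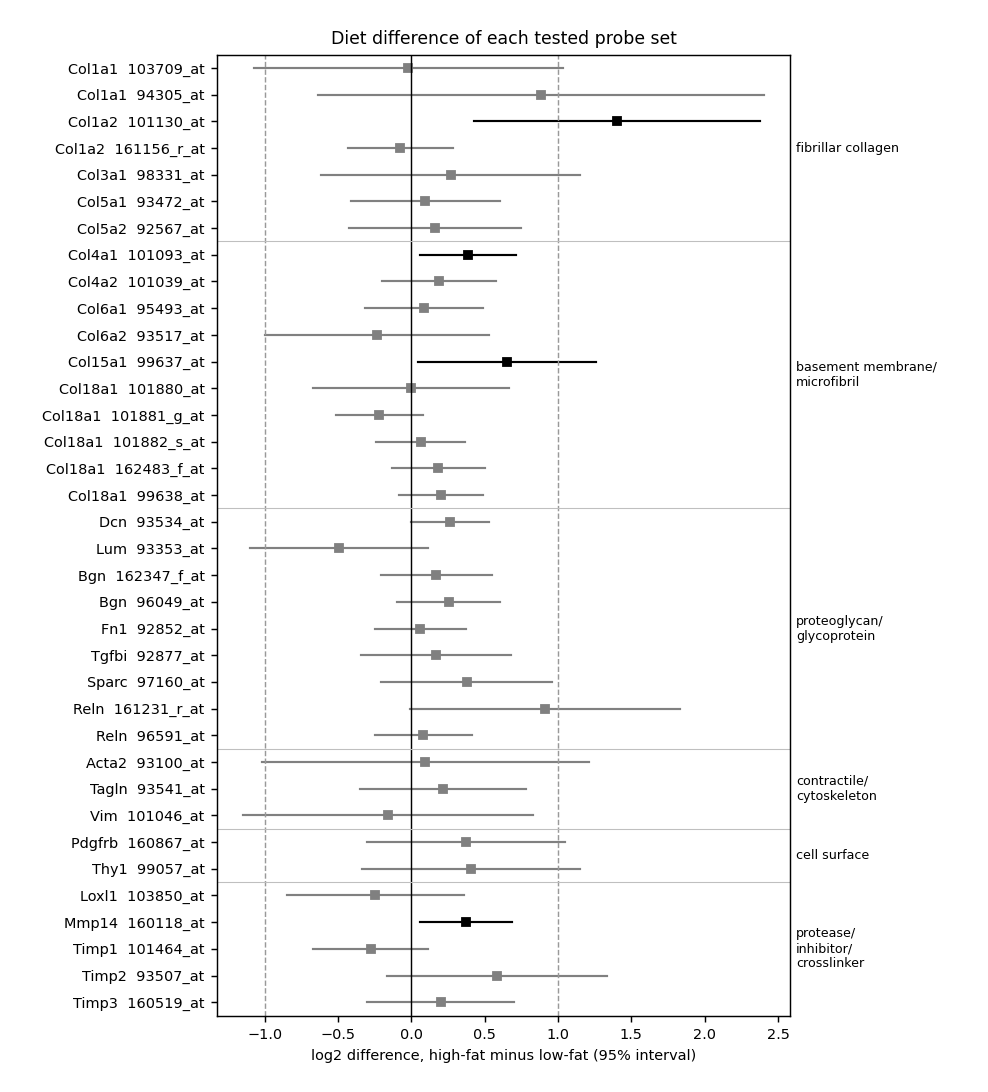
Log2 difference between the diets (squares) with its 95% interval (bars) for each tested probe set, with dashed lines at a doubling and a halving. Black marks the 4 probe sets with an unadjusted p under 0.05, and 27 of the 36 squares lie above 0.

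**Figure D3:**
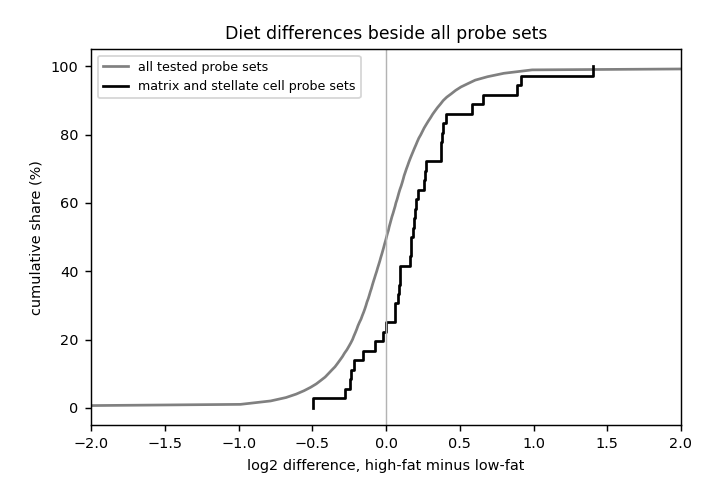
Cumulative share of tested probe sets against the log2 difference between the diets, for the 36 matrix and stellate cell probe sets (black steps) and for all 8950 (grey). The black steps lie to the right of the grey line over the middle of the plot, with medians of 0.18 and 0.003.

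The fibrillar collagens form the cable-like fibres of scar tissue. Of the 7 tested probe sets for all 5 of these genes 0 passed the test, 5 had a difference above 0, and the median log2 difference was 0.16. Their high-fat arrays lay far apart. Col1a1, the other chain of type I collagen, read 119, 317 and 533 on high-fat arrays 1, 2 and 3 with probe set 103709_at, and 284, 275 and 270 on low-fat arrays 1, 2 and 3. Its second probe set, 94305_at, read 20.1, 296 and 514 on the high-fat and 176, 29.7 and 137 on the low-fat arrays. High-fat array 3 lay above all low-fat arrays in both, while high-fat array 1 lay below all of them in 103709_at and, like low-fat array 2, under the floor in 94305_at. The high-fat mean of 103709_at was 323 ± 207 (SD, n = 3) and its low-fat mean 276 ± 7.41 (SD, n = 3). Its log2 difference was -0.02 ± 0.47 (SE) with an interval from -1.07 to 1.03 and an adjusted p of 0.997 in limma, and that of 94305_at was 0.89 ± 0.67 (SE) with an adjusted p of 0.796. The latter was 0.27 without high-fat array 3 and 1.72 without high-fat array 1.

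Col3a1, the chain of type III collagen that is laid down beside type I in scar, read 206, 302 and 658 on the high-fat and 350, 241 and 279 on the low-fat arrays with 98331_at. Again high-fat array 1 was the lowest and high-fat array 3 the highest of all 6. The log2 difference was 0.27 ± 0.39 (SE), with an interval from -0.61 to 1.15 and an adjusted p of 0.918 in limma. A further Col3a1 probe set, 161984_f_at, was above the floor on 2 arrays only, at 84.6 on high-fat array 2 and 116 on high-fat array 3. The remaining one, 102990_at, was under the floor on all 6. The sign of both leading probe sets turned with 1 array. Without high-fat array 1 the log2 difference was 0.58 for Col1a1 (103709_at) and 0.64 for Col3a1, and without high-fat array 3 it was -0.51 and -0.20. Over the 7 tested fibrillar collagen probe sets, the median log2 value relative to the low-fat mean was -0.37 on high-fat array 1, 0.20 on array 2 and 0.95 on array 3, against 0.18, -0.07 and -0.03 on the low-fat arrays. With 1 probe set for each of the 5 genes it was -0.37, 0.12 and 0.42 on the high-fat arrays. High-fat array 1 was also the lowest of its diet for contractile and cytoskeletal genes (-1.06), but not for the other groups. It was the highest of its diet for basement membrane and microfibrillar collagens (0.24), proteoglycans and glycoproteins (0.22) and cell surface genes (0.67). The 3' to 5' ratio of the Gapdh control, a measure of RNA integrity, was 1.22, 1.23 and 0.89 on high-fat arrays 1, 2 and 3 and 1.04, 1.07 and 0.82 on the low-fat arrays. Its part in the spread of the collagens was not tested.

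**Figure D4:**
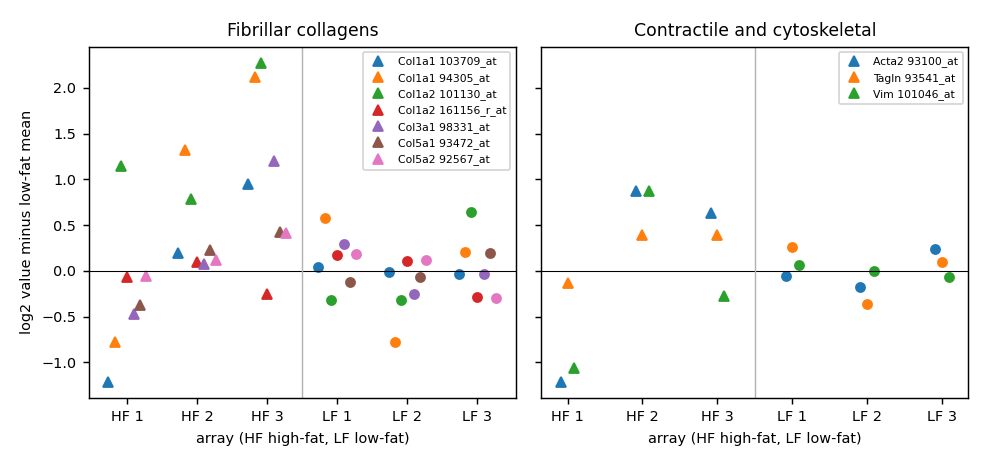
Log2 value of each tested probe set minus its low-fat mean, on each array, for fibrillar collagens (left) and contractile and cytoskeletal genes (right). Colours mark probe sets, triangles high-fat and circles low-fat arrays. On high-fat array 1 every probe set shown except Col1a2 101130_at lies below 0. On high-fat array 3 every probe set shown except Col1a2 161156_r_at and Vim lies above all low-fat arrays.

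The largest difference on the list was that of 1 of the tested probe sets of Col1a2, whose start region is shown above. Probe set 101130_at read 190, 148 and 416 on the high-fat arrays and 52.8, 46.2 and 134 on the low-fat arrays, where 2 of the 3 lay under the floor. All high-fat arrays lay above all low-fat arrays. The log2 difference was 1.40 ± 0.43 (SE), or 2.64-fold on the floored scale, and the adjusted p was 0.308 in limma. The size of this fold depends on the floor, to which the low-fat values under it were raised. The other probe set, 161156_r_at, read 1349, 1514 and 1191 against 1600, 1522 and 1164, and its diets overlapped. Its log2 difference was -0.07 ± 0.16 (SE) with an interval from -0.43 to 0.28, which lies wholly under that of 101130_at, from 0.43 to 2.37. The suffix of 161156_r_at marks probes chosen by relaxed rules, and which of the 2 reads Col1a2 was not tested. Col5a1 and Col5a2, minor chains that set the width of collagen fibres, had log2 differences of 0.09 and 0.16 with overlapping diets.

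Basement membrane collagens line the sinusoids and vessels, and they were grouped with the microfibrillar Col6a1 and Col6a2. In this group 2 of 10 tested probe sets lay higher on the high-fat diet without overlap, against 7.34% of all tested probe sets. Col4a1 read 817, 967 and 796 on the high-fat and 622, 634 and 713 on the low-fat arrays, at means of 860 ± 93.4 (SD, n = 3) and 656 ± 49.4 (SD, n = 3). That is 1.31-fold, a log2 difference of 0.39 ± 0.15 (SE), with an adjusted p of 0.446 in limma. Col4a2, its head-to-head neighbour, read 742, 947 and 1097 against 796, 733 and 892, and its diets overlapped. Its log2 difference was 0.19 ± 0.17 (SE), and the intervals of the pair, 0.06 to 0.72 for Col4a1 and -0.20 to 0.58 for Col4a2, overlap widely. Col15a1, a collagen that joins basement membranes to the matrix below, read 239, 254 and 241 on the high-fat and 143, 211 and 124 on the low-fat arrays. The high-fat arrays lay close together and above all low-fat ones, at 1.57-fold, with a log2 difference of 0.66 ± 0.27 (SE) and an adjusted p of 0.4997 in limma.

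Col18a1, whose cleaved end is endostatin, had 5 tested probe sets with log2 differences from -0.22 to 0.20, of which 3 lay above 0, and none passed. Col6a1 and Col6a2, chains of beaded microfibrils, had log2 differences of 0.09 and -0.24. Nid1, the nidogen that links laminin to type IV collagen, was above the floor on 1 array of each diet and was not tested. Over the 10 tested probe sets of this group, 7 lay above 0 with a median of 0.13.

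Of the proteoglycans and glycoproteins, 8 of 9 tested probe sets lay above 0, with a median log2 difference of 0.17, and 0 passed the test. Dcn encodes decorin, a small proteoglycan that binds collagen fibres and transforming growth factor beta. It read 4705, 4462 and 5502 on the high-fat and 4058, 4039 and 4057 on the low-fat arrays. The low-fat arrays lay close together and all high-fat arrays lay above them, at 1.202-fold, with a log2 difference of 0.27 ± 0.12 (SE) and an adjusted p of 0.551 in limma. Lum, for lumican, a close relative of decorin that spaces collagen fibres, was the lowest on the list. It read 163, 179 and 284 on the high-fat and 308, 287 and 263 on the low-fat arrays, so that high-fat array 3 lay among the low-fat arrays. Its log2 difference was -0.49 ± 0.27 (SE) with an adjusted p of 0.670.

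Reln, the secreted glycoprotein reelin, which in liver is made by stellate cells, was read by a pair of probe sets that differed in size of difference. Probe set 161231_r_at read 204, 309 and 199 on the high-fat and 30.8, 212 and 129 on the low-fat arrays, with a log2 difference of 0.91 ± 0.41 (SE) and an adjusted p of 0.557 in limma. Low-fat array 1 lay under the floor, and without it that difference was 0.49. With the floor at the 10th percentile it was 1.30, and at the 50th 0.28, so its size depends on the floor. The suffix of 161231_r_at also marks probes chosen by relaxed rules. Probe set 96591_at read 833, 731 and 881 against 757, 700 and 855, with a log2 difference of 0.08 ± 0.15 (SE). The diets overlapped in both. Fn1, for fibronectin, which hepatocytes also secrete into plasma, read 2668, 2007 and 2520 on the high-fat and 2468, 2186 and 2196 on the low-fat arrays. Its log2 difference was 0.06 ± 0.14 (SE) with an interval from -0.25 to 0.37. Bgn, for biglycan, had log2 differences of 0.26 and 0.17 in its 2 probe sets. Sparc, a collagen-binding glycoprotein, and Tgfbi, a matrix protein induced by transforming growth factor beta, had log2 differences of 0.38 and 0.17.

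Among the contractile and cytoskeletal genes, Acta2 and Tagln mark the myofibroblast state, and none of the group's 3 tested probe sets passed. Acta2, for smooth muscle actin, read 90.4, 382 and 325 on the high-fat and 202, 185 and 246 on the low-fat arrays. High-fat array 1 lay below and high-fat arrays 2 and 3 above all low-fat arrays. The log2 difference was 0.10 ± 0.49 (SE), with an interval from -1.02 to 1.21 and an adjusted p of 0.983 in limma. It was 0.75 without high-fat array 1, and -0.29 without high-fat array 2 or -0.17 without high-fat array 3. Vim, for the intermediate filament vimentin of mesenchymal cells, read 48.8, 263 and 119 against 151, 144 and 137, again with high-fat array 1 the lowest. Tagln, for the actin-binding protein transgelin, had a log2 difference of 0.22 ± 0.25 (SE). Des, for desmin, the filament by which rodent stellate cells are often identified, was above the floor only on high-fat arrays 1 and 2, at 76.4 and 162, and was not tested.

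Surface and signal genes lay near the floor. Pdgfrb, the receptor through which platelet-derived growth factor drives stellate cell division, read 123, 75.6 and 117 on the high-fat and 39.2, 65.6 and 105 on the low-fat arrays. All 3 high-fat arrays but only 1 low-fat array lay above the floor, and the diets overlapped. The log2 difference was 0.37 ± 0.30 (SE) with an adjusted p of 0.813 in limma. Leaving out high-fat array 1 gave 0.25, leaving out high-fat array 2 gave 0.60 and leaving out low-fat array 3 gave 0.58. Thy1, a surface protein of portal fibroblasts and of T cells, had a log2 difference of 0.40 ± 0.33 (SE). Tgfb1, for the cytokine itself, lay under the floor on all 6 arrays, from 22.9 to 64.5, so that no difference was detectable.

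Among the enzymes and inhibitors that remodel matrix, 3 of 5 tested probe sets lay above 0 and 0 passed. Mmp14 activates pro-Mmp2 and cuts fibrillar collagen at the cell surface. It read 1127, 1426 and 1403 on the high-fat and 1085, 1021 and 938 on the low-fat arrays, at means of 1319 ± 166 (SD, n = 3) and 1015 ± 74.0 (SD, n = 3). All high-fat arrays lay above the low-fat ones, at 1.29-fold, with a log2 difference of 0.37 ± 0.14 (SE) and an adjusted p of 0.446 in limma. Timp1, the protease inhibitor that active stellate cells secrete, read 536, 545 and 691 on the high-fat and 770, 608 and 767 on the low-fat arrays. Its log2 difference was -0.28 ± 0.17 (SE) with an interval from -0.67 to 0.11, so that a doubling on the high-fat diet lay outside it, and the adjusted p was 0.730. A second Timp1 probe set, 162107_r_at, was under the floor on all arrays.

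Timp2, which also takes part in the activation of pro-Mmp2, read 179, 288 and 293 on the high-fat and 207, 197 and 109 on the low-fat arrays with 93507_at. The diets overlapped, the log2 difference was 0.59 ± 0.33 (SE), and it was 0.29 without low-fat array 3. Both other Timp2 probe sets were under the floor throughout. Timp3, an inhibitor bound to the matrix, had a log2 difference of 0.20 ± 0.22 (SE), and Loxl1, a relative of lysyl oxidase that crosslinks elastin, one of -0.25 ± 0.27 (SE). Lox, the lysyl oxidase that crosslinks collagen, was under the floor on all arrays in both probe sets. Mmp2, the gelatinase of stellate cells, was above it on at most 2 of the 6.

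Of 94 further genes of the matrix and its signals, in 7 lists of other collagens, glycoproteins, collagen-modifying enzymes, proteases, transforming growth factor beta signalling, platelet-derived growth factors and integrins, 1 rose and 0 fell. With 1 probe set per gene, 0.915% of all 6557 tested genes passed in either direction. The one that passed was Gpc1, for glypican 1, a heparan sulfate proteoglycan of the cell surface. It read 786, 981 and 795 on the high-fat and 364, 495 and 343 on the low-fat arrays, so that every high-fat array lay far above every low-fat one. It rose 2.15-fold, with a log2 difference of 1.10 ± 0.19 (SE) and an adjusted p of 0.0375 in limma. The call was lost without any 1 of the 6 arrays, where the adjusted p ran from 0.05001 without low-fat array 2 to 0.173 without high-fat array 2, while the log2 difference stayed between 0.999 and 1.27. It was also lost without the variance trend in eBayes (adjusted p = 0.113) and without the filter on dim probe sets (0.232). Of the 94 genes 50 had a difference above 0 (51.3% of all tested genes did), and their median was 0.02.

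Taken over all of these lists, the genes nearest to the threshold did not point one way. In the lists of proteases and of integrins the 3 with the smallest p all lay above 0. Of other collagens, 0 of 12 passed, and Col6a3, the third chain of the type VI microfibrils, read 347, 422 and 515 against 308, 97 and 166, with a log2 difference of 1.31 ± 0.39 (SE) and an adjusted p of 0.294 in limma. Col9a1, a chain of the cartilage collagen type IX, had a difference of -0.59. Col13a1, a membrane-spanning collagen, had 0.58 with 102261_f_at and 0.12 with 102262_r_at. Of 28 other glycoproteins and proteoglycans 1 passed. Tnc, for the injury-induced tenascin C, had a difference of 0.81 with 101993_at. Its low-fat arrays 1 and 3, at 25.7 and 64.9, lay under the floor, so the size depends on the floor. The other Tnc probe set, 162362_f_at, was under the floor on all arrays. Fbln1, for fibulin 1, had -0.44 with 94309_g_at and -0.13 with 94308_at. Of 11 collagen-modifying genes 0 passed, with 0.70 for Serpinh1, the collagen chaperone, and -0.81 for P4hb, a subunit of prolyl hydroxylase, whose other probe set had 0.05. Of 21 genes of transforming growth factor beta signalling 0 passed. There Tsc22d1, a gene first found as induced by that factor, had 1.19 ± 0.32 (SE) with an adjusted p of 0.214, Ski, a repressor of the pathway, had 0.48, and Smad2, which carries its signal to the nucleus, had -0.52. Of 11 other proteases and inhibitors 0 passed, with Mmp12, the macrophage elastase, at 1.04 (adjusted p = 0.587). It read 427 on high-fat array 3 against 99.9 and 151 on the other high-fat arrays. The next by p were Ctsb, at 0.24 with 94831_at, and Adam15, at 0.31. The 3 genes of platelet-derived growth factors and their receptors and the 8 integrins had 0 calls. Itgav, a subunit of the integrins that free latent transforming growth factor beta, was at 0.27 with 104386_f_at and at 0.008 with 104385_i_at. Itgb5 was at 0.23 with 100601_at and at 0.02 with 162218_f_at, and Itga2 was at 0.41.

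Defining markers of stellate cells were read on each array. Lrat and Ngfr are not analysed here. Dcn, Reln and Gfap, the last a filament protein of quiescent stellate cells and astrocytes, were above the floor on all 6 arrays. Hand2 was above it on 5, Pdgfrb on 4 and Des on 2. Dcn, Reln, Pdgfrb and Des are themselves on the list, and most probe sets lay above the floor on every array. These readings therefore do not show which cells the RNA came from. Outside the 33 genes, 5 stellate cell markers were tested and 0 passed, with 3 above 0, and their summed intensity ran from 649 to 968 on the high-fat and from 683 to 710 on the low-fat arrays. Of 16 tested macrophage markers 0 passed, 14 had a log2 difference above 0 (51.3% of all tested genes did) and the median was 0.28. Their summed intensity was 14921, 13916 and 16928 on high-fat arrays 1, 2 and 3 and ran from 10808 to 13519 on the low-fat arrays. The diets did not overlap. High-fat array 3 was the highest of its diet here and for the fibrillar collagens. The lowest of the high-fat arrays was array 2 here and array 1 for the fibrillar collagens. The marker nearest to the threshold was Mpeg1, for a pore-forming protein of macrophages, at 1.86-fold with an adjusted p of 0.0742 in limma. The part of macrophages in the matrix values was not tested.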

How the data were processed

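Liver RNA of 3 high-fat and 3 low-fat arrays was compared. The deposited table holds 1 linear intensity per probe set and array. The software is not given in the sources used here, nor is the background correction. Trimmed of 2% of values at each end, every array's deposited mean was 500.4, so this scaling was kept; it hides any shift common to most transcripts.

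Names came from the platform's gene table (10855 with 1 symbol, 396 with several, 1237 not listed), and all 51 member probe sets matched a RefSeq gene ID with 0 symbols changed. Values under the pooled 30th percentile, 68.9, were set to it, and log2 was taken. The 66 control probe sets were left out. All 8950 tested probe sets were fitted with limma 3.58.1 in R 4.3.3 (lmFit, eBayes with trend), high-fat minus low-fat, two-sided, with Benjamini-Hochberg adjustment over all of them. Folds are on the floored log2 scale, and means and SDs are of intensities. A gene of the other lists was represented by its brightest tested probe set (mean log2 value). The method was tested on simulated data.

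The members and lists were chosen with earlier results of these data known. Values on every array are given for members with an unadjusted p under 0.05, for the 8 smallest p-values and for most of 12 standard fibrosis and stellate cell genes. Of the 12, Spp1 is not analysed here, Des is given only where above the floor and Tgfb1 as a range. For the other lists, called genes and up to 3 by smallest p could be named.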

Additional observations from a re-analysis of the deposited data

How the results depend on the processing

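The count of member probe sets past the threshold was 0 under every alternative run: quantile and median scaling, floors at the 10th and 50th percentile, a constant of 50 in place of the floor, no filter or one asking for all 6 arrays, eBayes without trend or robust, array weights, shared-probe suffixes left out, an adjusted p of 0.10, 1 probe set per gene, and each array or both arrays numbered 3 left out. At an unadjusted p under 0.05 the count ran from 2 to 7. The smallest adjusted p of a member was 0.0618, with the replicate number as a block, which also gave 0 calls. Same-numbered arrays deviated together with r of 0.07, 0.11 and 0.31 for numbers 1, 2 and 3. These values do not settle whether the numbers pair the arrays, and the main fit did not pair them. With the block 103 of all tested probe sets passed, against 74 in the main fit. The median log2 difference ran from 0.095 without a filter to 0.25 without high-fat array 1 (0.097 to 0.25 with each array left out), and the count above 0 from 25 to 29 with each array left out.

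With both arrays numbered 3 left out, Col3a1 was at -0.22, Fn1 at -0.0056 and Acta2 at -0.055. Col1a1 (103709_at) was at 0.18 with the floor at the 50th percentile and at 0.022 with the added constant. With each array left out, Col1a1 (103709_at) ran from -0.51 to 0.58, Col1a2 (161156_r_at) from -0.21 to 0.015, Col3a1 from -0.20 to 0.64, Fn1 from -0.020 to 0.19 and Acta2 from -0.29 to 0.75. These values have intervals that include 0. In alternatives added after the data were seen, the count of called genes in the other matrix lists was 0 without a filter, 0 without the trend, 0 with both arrays numbered 3 left out, 0 with each array left out, and 2 (Gpc1 and Tsc22d1) with the replicate block, against 1. Without the filter more probe sets were tested, and with arrays left out fewer samples were compared. The causes of these changes in the count were not tested.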

Other observations

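Markers of other liver cell types were also read. Of 14 tested sinusoidal endothelial markers 0 passed, 7 lay above 0 and the median log2 difference was -0.03. Among them Tie1, an endothelial receptor, read 229, 199 and 234 on the high-fat and 267, 292 and 323 on the low-fat arrays with 99936_at. These did not overlap, and the log2 difference was -0.41 with an adjusted p of 0.644 in limma. The other Tie1 probe set, 161184_f_at, had a log2 difference of 0.23. Of 7 lymphocyte markers 0 passed and 3 lay above 0. Of 3 smooth muscle markers 0 passed, and Tpm2, a tropomyosin, had a log2 difference of 0.98 with an adjusted p of 0.431 in limma, with all 3 low-fat arrays under the floor. Of 12 hepatocyte markers 0 passed and 6 lay above 0, with a median of -0.02. Nearest to the threshold was Tat, the tyrosine aminotransferase, at 13797, 9815 and 10582 on the high-fat and 18010, 19400 and 21258 on the low-fat arrays, without overlap, with a log2 difference of -0.79 and an adjusted p of 0.0742 in limma. Of the bile duct markers only Cldn4, a claudin, was tested, with a log2 difference of 0.56 and an adjusted p of 0.830.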
